A study of Mus musculus with 4 samples.

Results

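Rod phototransduction genes were examined in lens epithelia of mice with and without UVB irradiation of the eye. The 10 genes were those of the 3 rod transducin subunits (Gnat1, Gnb1 and Gngt1), the 3 phosphodiesterase subunits (Pde6a, Pde6b and Pde6g), both channel subunits (Cnga1 and Cngb1), rod arrestin (Sag) and recoverin (Rcvrn). They were chosen by name as parts of one pathway, with earlier results of these data known, and all 10 had a probe set of their own among the 19938 genes with one. Where a gene had several probe sets, the one with the highest mean over the arrays stands for it, which applied to Cngb1 alone. UVB-irradiated epithelia came from right eyes of 8-week-old male C57BL/6 mice, collected a day after exposure at 30 mJ/cm2, and control epithelia from the foil-covered left eyes of the same mice. There were 2 arrays per group, 1 from each of 2 independent experiments. No genetic change is stated for the mice, and both eyes shared the anesthesia. The methods give 3 mice per animal experiment but not how many of them contributed to an array. The paper's text names 3 of the 10 genes (Pde6b, Pde6g and Gngt1) among those selected on these same arrays, so their direction is not independent evidence here.

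In rods, light-activated rhodopsin switches on the G protein transducin, whose alpha subunit relieves the inhibition of a cyclic GMP phosphodiesterase. Falling cyclic GMP closes a cation channel of the outer segment membrane, and the cell hyperpolarizes. Arrestin ends the signal at rhodopsin, and the calcium sensor recoverin restrains the kinase that prepares rhodopsin for arrestin. Most of these proteins define retinal photoreceptors, whereas the lens epithelium is known for crystallins and for the transcription factors Pax6 and Foxe3.

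To show what the genes share in sequence, promoters from RefSeq (mouse build GRCm38.p6, 250 bases before to 50 bases after the gene's start) were searched. Of the 10 genes, 6 had a promoter in the table. The 5 printed here are all of the cascade. Of these, 4 were chosen after their values were seen, with log2 fold changes after UVB of 0.73 to 1.15. The other is Gnb1, which is also used by many other cell types. Capitals mark TAATCC, the core read by bicoid-type homeodomain factors such as Otx2 and Crx, or TGCTGAC, a half-site of the rod factor Nrl, on either strand.
Gngt1, chr6:3993758-3994057, plus strand: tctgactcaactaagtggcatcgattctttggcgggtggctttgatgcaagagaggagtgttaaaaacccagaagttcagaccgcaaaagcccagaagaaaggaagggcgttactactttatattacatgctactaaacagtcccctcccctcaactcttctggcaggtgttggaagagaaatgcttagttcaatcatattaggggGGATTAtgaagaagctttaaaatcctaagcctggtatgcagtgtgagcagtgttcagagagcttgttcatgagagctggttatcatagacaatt
Pde6b, chr5:108388123-108388422, plus strand: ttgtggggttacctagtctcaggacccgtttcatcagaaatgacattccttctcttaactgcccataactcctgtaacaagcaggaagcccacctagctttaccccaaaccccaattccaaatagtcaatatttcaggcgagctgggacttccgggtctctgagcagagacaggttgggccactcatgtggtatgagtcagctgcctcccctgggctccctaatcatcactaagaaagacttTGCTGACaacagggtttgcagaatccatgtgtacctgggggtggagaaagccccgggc
Cnga1, chr5:72642703-72643002, minus strand: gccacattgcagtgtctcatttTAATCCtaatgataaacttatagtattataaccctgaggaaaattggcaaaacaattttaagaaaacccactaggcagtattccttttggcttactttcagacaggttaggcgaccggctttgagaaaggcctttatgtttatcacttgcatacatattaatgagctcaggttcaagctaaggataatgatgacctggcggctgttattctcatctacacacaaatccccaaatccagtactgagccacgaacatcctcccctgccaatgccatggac
Sag, chr1:87803430-87803729, plus strand: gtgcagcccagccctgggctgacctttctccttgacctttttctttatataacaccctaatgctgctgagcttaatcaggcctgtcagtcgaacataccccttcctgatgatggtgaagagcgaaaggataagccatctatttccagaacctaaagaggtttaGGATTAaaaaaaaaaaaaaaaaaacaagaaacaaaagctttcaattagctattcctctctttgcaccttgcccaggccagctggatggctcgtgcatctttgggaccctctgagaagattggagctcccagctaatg
Gnb1, chr4:155491111-155491410, plus strand: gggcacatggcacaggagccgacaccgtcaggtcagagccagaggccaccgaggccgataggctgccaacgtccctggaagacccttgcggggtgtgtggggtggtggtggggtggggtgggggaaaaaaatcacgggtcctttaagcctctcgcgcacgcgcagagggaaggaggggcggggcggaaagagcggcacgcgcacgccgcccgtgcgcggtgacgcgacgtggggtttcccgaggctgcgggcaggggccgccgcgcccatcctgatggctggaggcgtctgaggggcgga
TAATCC stood in 4 of the 6 promoters, against 7.06% of all 32851 promoters of 300 bases in the table. It began 44 bases before the start in Gngt1, 87 in Sag and 228 in Cnga1. The Cngb1 promoter, which is not printed, held it at 58 and at 25 bases before the start. Cngb1 had the smallest log2 fold change of the 10 genes, 0.105 by the probe set used. TGCTGAC was found in Pde6b, 8 bases before the start, and in 4.67% of all promoters. The third motif searched, TATAAA, stood in Gngt1 and Sag and in 13.6% of all promoters, and its matches overlapped neither of the others. In Gnb1 none of the 3 motifs was found, which says only that these letters are not in this window. The matches are a description of sequence and say nothing of binding.

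The log2 signals had been normalized before deposit. Over 28944 probe sets they lay between 1.49 and 13.97, and the array medians were between 7.19 and 7.22. As a rough check, since probe sets differ in how strongly they bind, all 10 genes of a lens epithelium list had control signals above the array median. The same held for 9 of the 10 rod cascade genes and for 10 of 12 retinal pigment epithelium genes. The check therefore does not separate lens from retina, and rod gene signals were already present in control epithelia. Cryaa, the alphaA-crystallin gene, was at 13.82 on both UVB arrays, against 13.77 and 13.78 on the control arrays. In every probe set, UVB and control signals added up to the same sum in both experiments, within 0.01. A larger difference in one experiment therefore appears as a higher UVB signal and a lower control signal by the same amount. A gene that is higher in both experiments then has both UVB arrays above both control arrays by construction, and each of these held for 6943 probe sets. The fit of limma without pairing then understates the spread between arrays, so a second fit paired the eyes by taking the experiment as a block. A gene was said to rise when it passed the thresholds of the methods, 1.8-fold and an unadjusted p of 0.01, in the fit without the block. The paper applied its thresholds in other software, so passing here is not the same as the paper's selection. Pde6g, which the paper names as upregulated, missed the p threshold in this fit. An exact permutation test of a single value on these 4 arrays cannot give a p under 0.333.

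All 10 rod cascade genes had higher signals on both UVB arrays than on both control arrays. Over all probe sets this held for 24.0%. The median log2 fold change of the 10 genes was 0.94, whereas that of all probe sets was −0.02. The methods' thresholds were passed by 5 of the 10, namely Gngt1, Pde6a, Pde6b, Cnga1 and Rcvrn, against 0.111% of all probe sets, and by Gngt1 and Pde6b with the block, against 0.0622%. At an adjusted p of 0.05 over all probe sets, limma called the same 5 genes and Gnb1 as higher (6 of 10, against 6.62% of all). With the block it called 0 of 10 and 0.0% of all probe sets, although 8 of the 10 were higher at an unadjusted p under 0.05, against 5.69% of all probe sets. Leaving out the UVB array of experiment 1 left 1 gene past the thresholds, Gngt1, and leaving out any of the other arrays left 0. Such a fit has 1 array in one group, assumed to vary like the other group, and 1 residual degree of freedom, and the log2 fold changes of the 5 genes stayed between 0.83 and 1.28 in it. The adjusted p with the block was 0.357 for 9 of the genes and 0.389 for Cngb1. These signals come from whole dissected tissue, in which more cells of a type and more RNA per cell cannot be told apart, nor can RNA of lens cells and retinal RNA carried over at dissection. The methods describe clearing retina and other tissue from the lens before the epithelium was taken.

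**Figure D1:**
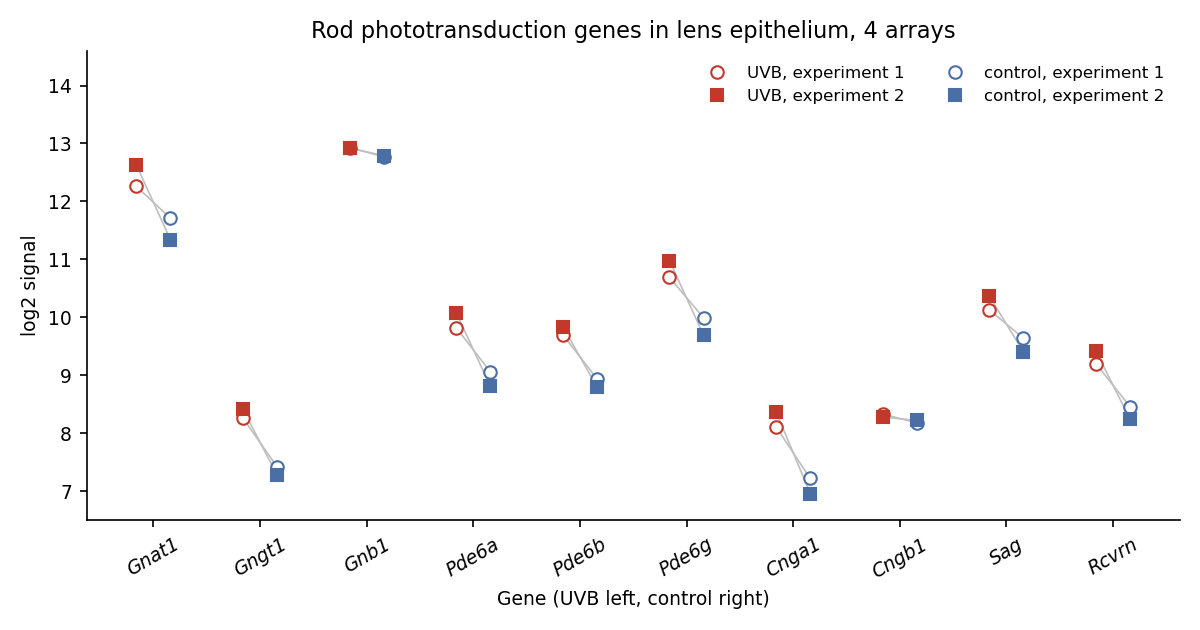
Log2 signal of the 10 rod phototransduction genes on the 4 arrays, with UVB (red) left of control (blue). Open circles are experiment 1, filled squares experiment 2, and lines join the eyes of one experiment. In every gene both UVB arrays lie above both control arrays, by the least in Cngb1 and Gnb1.

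Transducin carries the signal from rhodopsin. Gnat1, its rod alpha subunit, had log2 signals of 12.26 and 12.63 in UVB-irradiated epithelia of experiments 1 and 2, against 11.71 and 11.34 in control epithelia. The difference was positive in both experiments and larger in experiment 2, at 1.29 against 0.55 in experiment 1. The mean change was 1.89-fold (0.92 on the log2 scale, standard error 0.22) and missed the p threshold (limma's unadjusted p = 0.0279, adjusted p = 0.0924). Gnat1 thus exceeded the fold threshold in the mean, with the widest gap between experiments of the 10 genes.

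Gngt1, the rod gamma subunit that anchors the complex to membranes, rose 1.98-fold. Its log2 signals were 8.26 and 8.41 in UVB-irradiated epithelia and 7.42 and 7.28 in control epithelia. The UVB arrays were each higher than either control array by more than the arrays of a group differed. The log2 fold change was 0.98 (standard error 0.087; limma's adjusted p = 0.0263), with 0.84 in experiment 1 and 1.13 in experiment 2. It passed the thresholds in the fit with the block as well (unadjusted p = 0.00791).

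Gnb1, the beta subunit, serves G proteins of most cell types besides rods. It had log2 signals of 12.93 and 12.92 in UVB-irradiated epithelia, against 12.77 and 12.79 in control epithelia. Its arrays agreed closely within each group, so that a log2 change of only 0.14 (1.11-fold, standard error 0.012) reached limma's adjusted p of 0.0255. The difference of Gnat1 exceeded that of Gnb1 by 0.39 in experiment 1 and by 1.16 in experiment 2. An exact permutation test of this gap, two-sided, gave p = 0.333, the smallest that the 4 arrays allow.

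The phosphodiesterase hydrolyzes cyclic GMP through its catalytic subunits, encoded by Pde6a and Pde6b, which the small subunit encoded by Pde6g inhibits in the dark. Pde6a had log2 signals of 9.82 and 10.08 in UVB-irradiated epithelia and of 9.06 and 8.81 in control epithelia. It rose 2.02-fold (log2 fold change 1.01, standard error 0.15; limma's adjusted p = 0.0472), but not with the block (unadjusted p = 0.0232). Pde6b had log2 signals of 9.70 and 9.84 in UVB-irradiated epithelia and of 8.94 and 8.80 in control epithelia. It rose 1.87-fold in both fits (log2 fold change 0.90, standard error 0.084). The 2 experiments gave 0.76 and 1.04 on that scale.

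For Pde6g, UVB-irradiated epithelia had log2 signals of 10.69 and 10.98, against 9.99 and 9.69 in control epithelia. The log2 fold change of 0.99 (standard error 0.18) lay between those of the catalytic subunits, but the p threshold was missed (limma's unadjusted p = 0.0127). Under quantile normalization Pde6g passed, at an unadjusted p of 0.00687 from limma, and with a robust prior at 0.00863. In experiment 1 both catalytic subunits were 0.76 higher after UVB, and in experiment 2 the difference of Pde6a exceeded that of Pde6b by 0.23. In exact permutation tests, two-sided, the gaps between Pde6a and Pde6b, between Pde6g and Pde6a, and between Pde6g and Pde6b each gave p = 0.667, which does not show that the subunits moved alike.

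The channel of the rod outer segment is formed by Cnga1, its main pore subunit, and Cngb1, its modulatory subunit. Cnga1 had log2 signals of 8.11 and 8.37 in UVB-irradiated epithelia, against 7.22 and 6.96 in control epithelia. It had the largest fold change of the 10 genes, 2.22-fold (log2 fold change 1.15, standard error 0.15; limma's adjusted p = 0.0415), and ranked 11 of all 28944 probe sets. It was also the only one of them above 1.8-fold in experiment 1, at 1.85-fold, with 2.66-fold in experiment 2. With the block its unadjusted p was 0.0186, above the threshold.

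Cngb1 was measured by 4 probe sets that gave different answers. The probe set with the highest mean, 10580852, had log2 signals of 8.33 and 8.28 in UVB-irradiated epithelia and of 8.18 and 8.22 in control epithelia, a log2 fold change of 0.10 (standard error 0.028; limma's adjusted p = 0.107). Probe set 10580829 had 8.53 and 8.54 in UVB-irradiated epithelia, against 7.92 and 7.91 in control epithelia. Its log2 fold change was 0.62 (standard error 0.0099; limma's adjusted p = 0.0210), with 0.61 in experiment 1 and 0.63 in experiment 2, under the fold threshold.

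The remaining Cngb1 probe sets lay between these. Probe set 10580854 had differences of 0.32 in experiment 1 and 0.15 in experiment 2. Probe set 10580850 had 0.52 in experiment 1 but 0.020 in experiment 2. Each of the 4 had a positive difference in both experiments, and 0 of the 4 passed the thresholds. The choice of the probe set thus sets the Cngb1 value between 0.10 and 0.62 on the log2 scale.

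**Figure D2:**
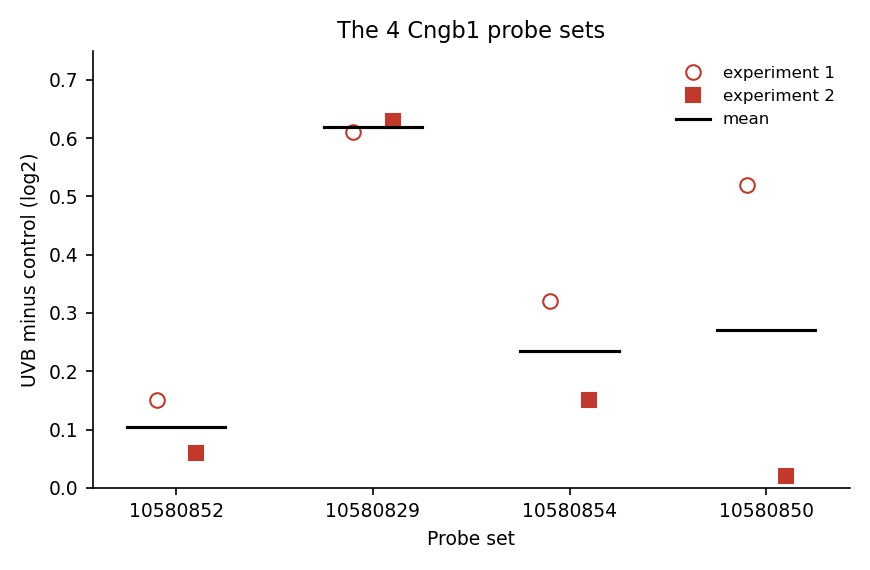
Log2 difference, UVB minus control, of the 4 Cngb1 probe sets, ordered from the highest mean signal on the left. Open circles are experiment 1, filled squares experiment 2, and bars their mean. Probe set 10580829 had 0.61 and 0.63 in the 2 experiments, whereas 10580850 had 0.52 and 0.020.

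Arrestin and recoverin act in the recovery of the rod from light. Sag had log2 signals of 10.13 and 10.37 in UVB-irradiated epithelia, against 9.64 and 9.40 in control epithelia. The 1.66-fold change (0.73 on the log2 scale, standard error 0.14) stayed under the fold threshold in the mean while experiment 2 reached 1.96-fold. Rcvrn had log2 signals of 9.20 and 9.42 in UVB-irradiated epithelia, against 8.46 and 8.24 in control epithelia. It rose 1.95-fold (log2 fold change 0.96, standard error 0.13; limma's adjusted p = 0.0426), but not with the block (unadjusted p = 0.0193).

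The 2 experiments differed in size but not in direction. In 8 of the 10 genes, the difference was larger in experiment 2, against 46.8% of the 6943 probe sets that were higher in both experiments, and Gnb1 and Cngb1 were the exceptions. Over all 10 genes the median difference was 0.72 in experiment 1 and 1.16 in experiment 2. Over all probe sets it was −0.01 in experiment 1 and −0.02 in experiment 2. In experiment 1, 1 of the 10 exceeded 1.8-fold, against 0.131% of all probe sets, and in experiment 2, 8 did, against 0.321%. The gap between experiments ranged up to 0.74 in Gnat1. No test of this gap is possible, since each experiment had 1 array per condition.

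**Figure D3:**
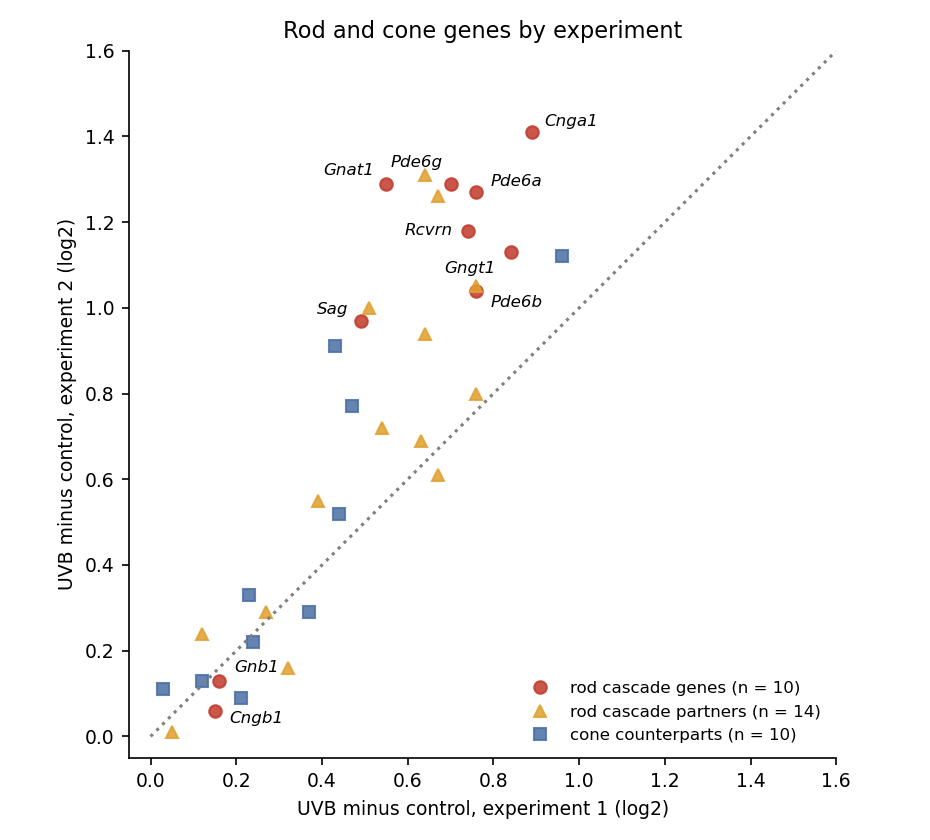
Log2 difference, UVB minus control, in experiment 1 (horizontal) and experiment 2 (vertical) for the 10 rod cascade genes (red circles, named), 14 rod cascade partners (yellow triangles) and 10 cone counterparts (blue squares). The dotted line marks equal differences, and 8 of the 10 rod cascade genes lie above it.

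Partners of the cascade were also higher after UVB, with a smaller median. Of a list of 16 partners, 14 were measured, and each of the 14 was higher in both experiments, against 24.0% of all probe sets. Their median was 0.65 on the log2 scale. Only Gucy2f passed the thresholds, a guanylate cyclase that restores cyclic GMP (log2 fold change 0.91), in both fits, and leaving out any 1 array left 0. With Benjamini-Hochberg adjustment in limma, 8 of the 14 passed 0.05 as higher, against 6.62% of all probe sets. With the block 0 did, where 11 were higher at an unadjusted p under 0.05, against 5.69% of all probe sets. Pdc, phosducin, which binds the beta and gamma subunits of transducin, was at 0.97 in the mean, 0.64 in experiment 1 and 1.31 in experiment 2. Prph2, a protein of the disc rim, was at 0.96. The smallest values were those of Pde6d, a carrier of prenylated proteins used in many tissues, at 0.030, and of Gnb5, a beta subunit that is also found in brain, at 0.18.

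Cone counterparts had smaller differences than their rod paralogs in most pairs. Most rod and cone proteins of the cascade are encoded by separate genes, which allowed 9 pairs to be set by paralogy. Pde6c served as the cone gene for both Pde6a and Pde6b, and Rcvrn was in no pair. The rod gene had the larger difference in both experiments in 7 pairs and the smaller in 2, Gnb1 with Gnb3 and Cngb1 with Cngb3. The Cngb1 pair turns with the probe set, since 10580829 had 0.61 and 0.63, against 0.24 and 0.22 for Cngb3. Cnga1 exceeded Cnga3 by 0.77 in experiment 1 and 1.28 in experiment 2, and Gngt1 exceeded Gngt2 by 0.81 and 1.02. Sag exceeded Arr3, the cone arrestin gene, by 0.020 and 0.20. Levels differed as well: on both control arrays, 2 of the 10 cone counterparts lay above the array median, against 9 of the 10 rod cascade genes. Whether the lower cone signals bear on the smaller differences was not tested. Each pair gave p = 0.333 in an exact permutation test, two-sided, and 0.333 after adjustment over the 9 pairs, so none of the gaps could pass a threshold of 0.05 with 4 arrays.

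Each of the 10 cone counterparts was higher in both experiments, against 24.0% of all probe sets. Their median was 0.30 on the log2 scale. At limma's adjusted p of 0.05, 7 of the 10 were higher without the block, against 6.62% of all, and 0 with it. With the block 8 were higher at an unadjusted p under 0.05, against 5.69%. For the rod cascade genes these counts were 6, 0 and 8. Opn1mw, the green cone opsin, passed the thresholds in both fits (log2 fold change 1.04). Opn1sw, the short-wave cone opsin, had a log2 fold change of 0.67 and Arr3 one of 0.62. The lowest were Gngt2, the cone transducin gamma subunit, at 0.070 and Cnga3, the cone channel subunit, at 0.12.

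Other eye genes were higher beside the rod genes. Of 5 measured photoreceptor transcription factors, 4 were higher in both experiments, against 24.0% of all probe sets. Neurod1, which maintains photoreceptors, was at 1.09 on the log2 scale (0.67 in experiment 1 and 1.51 in experiment 2), and Otx2 at 0.91. Prdm1, which acts in developing photoreceptors, had the lowest, at −0.075.

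Genes of the retinal pigment epithelium, the layer that adjoins the rods, also had high values. Of 12 measured genes, 11 were higher in both experiments and 4 passed the thresholds in both fits. Over all probe sets, 24.0% were higher in both experiments, and 0.111% passed without the block and 0.0622% with it. Their median was 0.82 on the log2 scale. Their linear signals summed to 7142 and 6771 in UVB-irradiated epithelia, against 3197 and 3358 in control epithelia, so the summed difference was the larger in experiment 1. For the rod cascade genes the sums were 18710 and 21098 in UVB-irradiated epithelia and 14137 and 12951 in control epithelia, with the larger difference in experiment 2. Gnb1 and Gnat1 had the highest signals of the rod cascade genes and weigh most in these sums, although the log2 fold change of Gnb1 was only 0.145. Of the 12 pigment epithelium genes, 4 had the larger difference in experiment 2, among them Ttr, a carrier of thyroid hormone and retinol-binding protein, whereas Rpe65, the retinoid isomerase, had 1.88 in experiment 1 and 1.56 in experiment 2.

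Markers of other retinal cells had lower medians. The median log2 fold change was 0.083 for 8 bipolar cell genes, 0.14 for 10 amacrine and horizontal cell genes, 0.24 for 8 ganglion cell genes and 0.24 for 8 Müller glia genes, and 0 passed the thresholds. After adjustment in limma, without the block, 1 bipolar, 2 amacrine and horizontal, 2 ganglion cell and 1 Müller glia gene passed 0.05 as higher. Over all probe sets 6.62% did. In lists of 8 to 10 genes, 1 or 2 such calls are too few to read as a result about a cell type. At an unadjusted p under 0.05, 3 bipolar, 3 amacrine and horizontal, 7 ganglion cell and 2 Müller glia genes were higher, against 14.4% of all probe sets. With the block these counts were 1, 2, 4 and 1, against 5.69%. Some of these markers had high signals in control epithelia. Pax6, also in the lens epithelium list, had a mean control signal of 11.57, and Vim of the Müller glia list 13.44. How far such genes lower the medians was not tested. Rlbp1, the Müller glia gene that passed after adjustment, is also in the pigment epithelium list. Linear signals of the bipolar cell genes summed to 2182 and 2163 in UVB-irradiated epithelia, against 1988 and 2008 in control epithelia. Those of the ganglion cell genes summed to 1401 and 1344 in UVB-irradiated epithelia and to 1120 and 1166 in control epithelia. The lens lists stood near 0, with medians of −0.033 for 10 lens epithelium and −0.030 for 9 lens fiber genes. Among lens genes, 3 were lower after Benjamini-Hochberg adjustment in limma (p under 0.05, no block), against 11.0% of all probe sets. They were Foxe3, at −0.14 on the log2 scale, Gja1, a gap junction gene, at −0.155, and Bfsp2, a filament protein gene of lens fibers, at −0.080. With the block 0 of them passed. The part of retinal or pigment epithelium RNA in the rod gene differences was not tested.

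**Figure D4:**
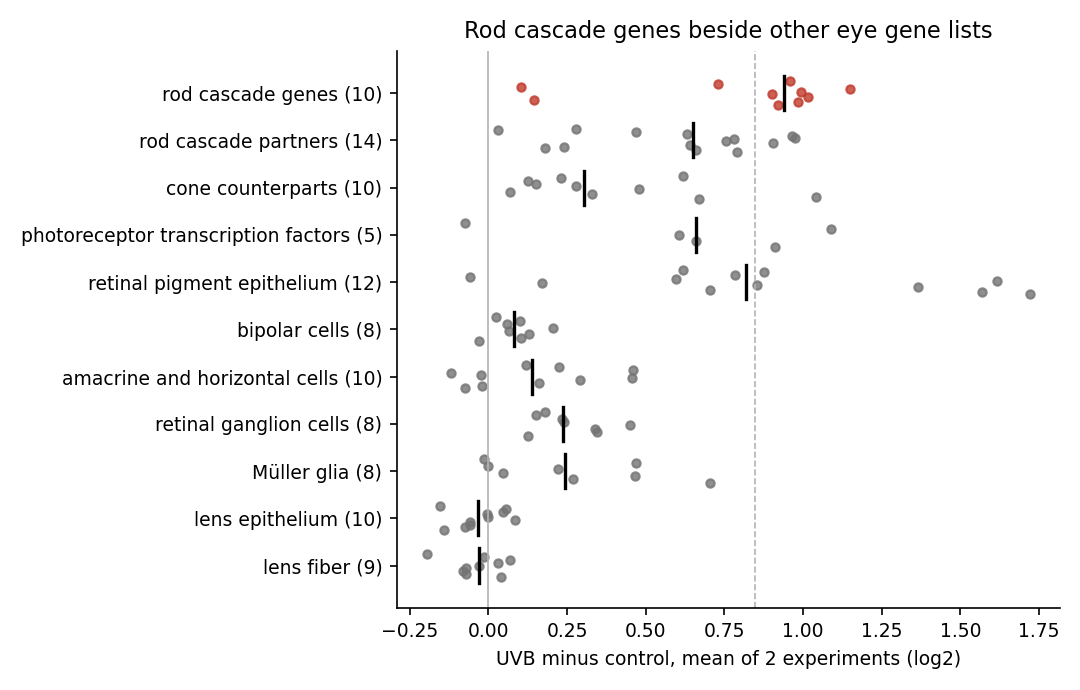
Log2 fold change, UVB over control, in the mean of both experiments, for each gene of 11 lists, with the number of measured genes in parentheses. Points are genes, black bars medians, the solid line 0 and the dashed line the 1.8-fold threshold. The rod cascade genes (red) have a median of 0.94, and the lens epithelium and lens fiber lists lie near 0.

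The genes most like the cascade were sought by the pair of differences in experiments 1 and 2. Among all other genes, each by its own probe set, the 5 nearest to the median pair of the rod cascade genes, by Euclidean distance on the log2 scale, were Syt1, Nat8f5, Abca4, Cplx4 and Ccl2. Syt1, a calcium sensor of synaptic vesicles, had differences of 0.71 and 1.16, at a distance of 0.011. Abca4, a retinoid transporter of the outer segment, had 0.77 and 1.09, and Cplx4, a complexin of retinal ribbon synapses, 0.79 and 1.08. Ccl2, a chemokine that attracts monocytes, is no photoreceptor gene and had 0.71 and 1.26, at a distance of 0.11. The likeness rests on 2 experiments and is a description.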

How the data were processed

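Lens epithelium RNA of 4 samples was measured on Affymetrix gene arrays, 1 array per sample. Mouse gene symbols of the platform's annotation were used, although the methods name a human array. The deposited values are log2 signals that the authors normalized with Affymetrix Expression Console. The sources used here give neither its version, nor the summarization, nor the step that made the experiment sums equal. Of 28944 probe sets, 21789 had 1 gene symbol, 1621 several and 5534 none.

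Groups and experiment numbers came from the sample titles, where experiment 1 carries no number. All probe sets were fitted with limma 3.58.1 (R 4.3.3) for UVB against control, two-sided, with Benjamini-Hochberg adjustment over all of them. The experiment served as a block in a second fit, since both eyes came from the same mice. As a check of the pairing, the arrays of one number were correlated by their deviations from the group means, which gave −0.998, a value that the equal sums produce. The precision is limited by the number of arrays, and p-values measure the spread between these arrays only.

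The genes, lists and tests were chosen with earlier results of these data known. All 10 genes of the cascade were named. Of other lists, up to 3 genes with the largest and 2 with the smallest differences were named, together with cone paralogs and the 5 genes most alike. Alternatives were the block, other normalizations and variance priors, filters on level and annotation, averaged probe sets, leaving out each array and other fold thresholds. Some listed genes are not analysed here.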

Additional observations from a re-analysis of the deposited data

How the results depend on the processing

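The log2 fold changes of the 10 rod cascade genes kept their direction in each of the 143 comparisons with an alternative. Of these, 117 also kept the side of the thresholds, 22 lost a pass and 4 gained one. All 22 were comparisons of the 5 genes that rose, so the pooled 117 does not measure how stable their calls were. The direction was largely fixed in advance. The block, the variance priors and the filters leave a fold change as it is. Leaving out 1 array cannot reverse a gene whose UVB arrays both lie above both control arrays. The median log2 fold change of the 10 genes stayed between 0.84 and 1.06 when 1 array was left out, and between 0.92 and 0.96 under the other settings. The genes past the thresholds numbered 5 as deposited, 2 with the replicate block, which pairs the eyes, 2 at 2-fold, and 0 to 1 when 1 array was left out. That 1 gene was Gngt1, without the UVB array of experiment 1, and the count was 0 without any of the other 3 arrays. At an adjusted p of 0.05, limma called 6 as deposited, 0 with the replicate block and 0 without any 1 array, in fits with 1 residual degree of freedom.

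Of the rod cascade partners, 1 passed the thresholds as deposited, 2 with quantile normalization, 2 with a robust prior, 6 at 1.5-fold, 0 at 2-fold, 3 with the fold alone, and 0 without any 1 array. Of the cone counterparts, 1 passed as deposited, 1 with the block, 1 at 2-fold and 2 at 1.5-fold. A crossed pairing of the arrays, added after the data were seen, called 10 rod cascade genes at an adjusted p of 0.05 and 3 partners at the thresholds, because the equal sums make its paired differences identical by construction. The fold alone and the separate Cngb1 probe sets were also added then. With 2 arrays per group, and experiments set to equal sums, a spread of single genes is measured on few degrees of freedom.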
